A study of Mus musculus with 6 samples.

Results

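Cholesterol synthesis in small intestinal organoids was examined through 7 genes chosen by name from the 21397 genes of the deposited table, namely Hmgcs1, Idi1, Fdps, Fdft1, Sqle, Lss and Srebf2. All 7 were found in the table, and all 7 reached the mean FPKM of at least 1 that was required for testing, as did 10551 genes in all. FPKM is the number of sequenced fragments of a gene, scaled to the length of the gene and to the size of the library. The organoids were grown from crypts of Fpr2f/f mice, which carry a floxed Fpr2 gene on the C57BL/6J background, and no Cre driver is named for the mice of either group. The study used young adult mice matched for age and sex. For 5 days the organoids received either MMK-1, a peptide agonist of FPR2, or DMSO at 0.1% as the vehicle. Each group held 3 libraries, and the study states that a sample pooled organoids of several mice. The dose of MMK-1 was 1 μmol/L in the protocol and in the methods, whereas the treatment label of the samples reads 1 mM. The study describes its data in general as coming from independent experiments, but the labels do not tie a library to a culture or to mice, and the p-values measure the spread between these libraries.

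The pathway builds cholesterol from acetyl-CoA. Hmgcs1 encodes the cytosolic synthase that forms HMG-CoA, Idi1 the isomerase that interconverts the isoprenoid building blocks, and Fdps the synthase of farnesyl diphosphate. Fdft1 encodes squalene synthase, the step that commits farnesyl diphosphate to sterols, Sqle the monooxygenase that oxidises squalene, and Lss the cyclase that closes the rings to give lanosterol. Srebf2 encodes the precursor of SREBP2, a transcription factor held in the membrane of the endoplasmic reticulum when sterols are plentiful and released by proteolysis when they run low, and the enzymes of the pathway are among its known targets. In the intestine, dividing cells need sterols for new membranes, and absorptive cells also take up cholesterol from the lumen.

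Upstream sequences are shown first, because SREBP2 is known to act at sterol regulatory elements beside CCAAT boxes, and because Srebf2 is one of the 7 genes. RefSeq windows on build GRCm38.p6 matched 4 of the 7 genes, and the 250 bases before the RefSeq start are printed 5′ to 3′ on the plus strand. Capitals mark matches, on either strand, to TCACNCCAC, a form of the sterol regulatory element, and to CCAAT, which reads ATTGG on the printed strand when it lies on the other one. The Hmgcs1 window is chr13:119690101-119690350, that of Idi1 chr13:8885356-8885605, that of Lss chr10:76531355-76531604 and that of Srebf2 chr15:82147019-82147268. The GENCODE gene starts given with each gene below differ from these RefSeq starts. Those of Idi1, Lss and Srebf2 fall inside the windows, and both marked boxes of Idi1 lie within its GENCODE gene.
Hmgcs1: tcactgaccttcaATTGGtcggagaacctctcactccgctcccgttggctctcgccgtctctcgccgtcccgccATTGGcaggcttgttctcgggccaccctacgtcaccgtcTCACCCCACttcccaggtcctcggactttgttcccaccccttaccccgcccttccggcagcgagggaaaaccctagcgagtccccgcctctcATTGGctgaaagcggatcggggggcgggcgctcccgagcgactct
Idi1: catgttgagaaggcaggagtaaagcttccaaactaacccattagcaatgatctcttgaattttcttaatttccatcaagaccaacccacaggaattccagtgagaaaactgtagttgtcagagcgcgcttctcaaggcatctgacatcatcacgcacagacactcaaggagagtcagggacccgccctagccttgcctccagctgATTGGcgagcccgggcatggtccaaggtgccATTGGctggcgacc
Lss: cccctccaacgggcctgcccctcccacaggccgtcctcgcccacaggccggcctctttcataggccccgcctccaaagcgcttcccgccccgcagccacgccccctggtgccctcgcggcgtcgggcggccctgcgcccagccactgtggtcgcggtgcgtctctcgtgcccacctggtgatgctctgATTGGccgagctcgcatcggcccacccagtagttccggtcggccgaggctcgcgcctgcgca
Srebf2: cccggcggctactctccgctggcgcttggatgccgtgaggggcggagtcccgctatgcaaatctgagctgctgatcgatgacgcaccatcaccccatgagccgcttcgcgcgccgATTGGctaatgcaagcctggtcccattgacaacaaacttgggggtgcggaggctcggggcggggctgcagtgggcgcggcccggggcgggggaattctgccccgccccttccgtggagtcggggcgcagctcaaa

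In these windows the form TCACNCCAC was found in Hmgcs1 alone, as TCACCCCAC beginning 137 bases before the RefSeq start, between CCAAT boxes that begin 176 and 45 bases before it. It was present in 1.05% of 32851 windows of the same length. A CCAAT box stood in all 4 windows, and in 33.8% of all windows. Of the 13 other sterol enzymes described later, all had a window, of which 0 held TCACNCCAC and 12 held a CCAAT box. A window without these letters says nothing about binding elsewhere.

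The libraries held between 35512739 and 37537463 fragments, and each of the 7 genes had between 4200 and 29464 fragments in a library, with the lowest for Idi1 and the highest for Hmgcs1. Epithelial markers were high, with Epcam between 377 and 415 FPKM, Krt8 between 661 and 841 FPKM and the leukocyte gene Ptprc at no more than 0.0136 FPKM. Cell type markers moved between the groups. Here and below, a gene is called higher or lower where limma gave a p of at most 0.05 after Benjamini-Hochberg adjustment, as it did upward for 48.5% and downward for 24.7% of all genes tested. Of 10 enterocyte markers, 8 were lower and 1 higher with MMK-1, and their summed FPKM was 13309 to 13508 in controls and 9855 to 10620 with MMK-1. All 7 tested stem cell markers of 8 and all 12 cell cycle genes were higher, with summed FPKM of 77.2 to 79.2 against 408 to 434 for the former and 255 to 257 against 428 to 443 for the latter. All 6 Paneth cell markers were higher too, with summed FPKM of 409 to 457 in controls and 1300.1 to 1432 with MMK-1. Of 7 goblet cell markers, 5 were higher and 2 lower. Of 6 enteroendocrine markers, 4 were higher and 2 had no call, and 0 of 4 tuft cell markers reached the level for testing. The summed FPKM of 7 leukocyte markers was 6.19 to 6.74 in controls and 2.46 to 3.30 with MMK-1, carried mainly by Cd68 and Itgam. In bulk RNA, fewer cells of a type and less RNA per cell cannot be told apart, and the part of these shifts in the values below was not tested.

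MMK-1 replicate 3 stood apart from the other MMK-1 libraries. A chi-square statistic of fragment counts, divided by its degrees of freedom so that pure counting noise gives about 1, reached 34.4 and 29.4 when replicate 3 was set against replicates 1 and 2. It was 3.46 for replicates 1 and 2 themselves and 2.78 to 4.78 for pairs of controls. The contrast moved with base composition over all genes. Among genes tested, the median log2 difference of replicate 3 from the mean of replicates 1 and 2 was -0.09 in the lowest of 4 equal bins of GC content (32.9% to 44.9%) and 0.10 in the highest (54.3% to 72.8%). Hmgcs1 and Idi1, whose transcripts have 43.1% and 41.9% GC, lay in the lowest bin but differed by far more than its median (-0.45 and -0.40). Other sterol enzymes of that bin did not fall alike, with -0.14 for Hsd17b7, -0.02 for Lbr, 0.02 for Sc5d and 0.10 for Msmo1. The part of GC content in the low values of Hmgcs1 and Idi1 was not tested, and both genes are given with and without that library.

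With MMK-1, 5 of the 7 genes were higher by this rule, and 0 were lower. Among all genes tested, 48.5% were higher and 24.7% lower, or 73.2% in either direction, so a call in itself was common. The FPKM of the 2 groups did not overlap in the same 5 genes, where 76.8% of all genes tested showed no overlap and 50.5% showed none while being higher with MMK-1. None of the 7 reached a fold change of 2, which with p of at most 0.05 was reached by 7.04% of all genes tested, 3.39% upward and 3.65% downward. The median log2 fold change of the 7 genes was 0.48, against 0.13 for all genes tested. Summed over the 7 genes, FPKM was 536 ± 4.06 (SD, n = 3) in controls and 744 ± 17.1 (SD, n = 3) with MMK-1.

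**Figure D1:**
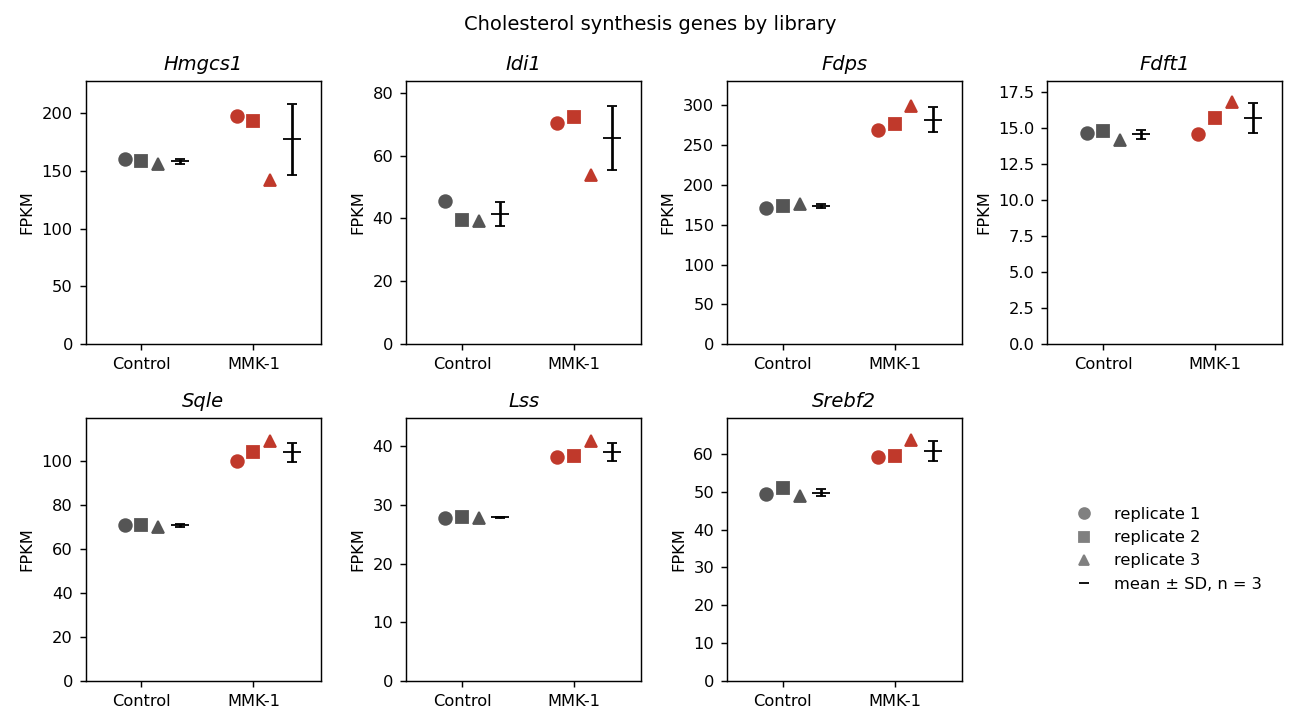
FPKM of the 7 cholesterol synthesis genes in each of the 6 libraries, with 1 panel per gene, grey symbols for control and red symbols for MMK-1 organoids, symbol shape for the replicate number and bars for the mean ± SD of 3 libraries. Idi1, Fdps, Sqle, Lss and Srebf2 lie above every control library in all 3 MMK-1 libraries, whereas in Hmgcs1 the triangle of MMK-1 replicate 3, at 142 FPKM, lies below the controls.

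Fdps (NCBI gene 110196; chromosome 3 of GRCm38, 89093588 to 89101959, minus strand) had the highest FPKM of the 7 genes in both groups. Its FPKM was 171, 174 and 176 in control replicates 1 to 3 and 269, 277 and 299.6 in MMK-1 replicates 1 to 3. Every MMK-1 library lay above every control library. The FPKM ratio was 1.62, and the log2 fold change on the log2(FPKM + 1) scale, used throughout, was 0.69 (SE 0.0470, adjusted p = 2.5e-06 by limma). This was the largest of the 7 with all libraries in, but Idi1 was above it without MMK-1 replicate 3 (0.77 against 0.65) and without control replicate 1 (0.71 against 0.68). In GENCODE vM21 the exons of Fdps overlap those of Gm43738 on the same strand, and how reads shared between these genes were counted is not given in the sources used here.

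Sqle (NCBI gene 20775; chromosome 15, 59315077 to 59331192, plus strand) encodes an oxygen-dependent step that is known as a slow point of the pathway. Its FPKM was 71.0, 71.2 and 70.2 in the controls and 100.2, 104 and 109 with MMK-1. The controls differed by little, and the groups were well separated. The FPKM ratio was 1.47 and the log2 fold change 0.55 (SE 0.0413, adjusted p = 4.5e-06 by limma).

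Lss (NCBI gene 16987; chromosome 10, 76531588 to 76557138, plus strand), which acts directly after Sqle, had an FPKM of 27.8, 28.0 and 27.8 in the controls. With MMK-1 the values were 38.2, 38.3 and 40.9. The groups did not overlap, and the log2 fold change was 0.48 (SE 0.0420, adjusted p = 1.2e-05 by limma). The rises of Sqle and Lss were thus of similar size, 1.47 and 1.40 by the FPKM ratio.

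Idi1 (NCBI gene 319554; chromosome 13, 8885501 to 8892451, plus strand) had a wider spread. Its FPKM was 45.7, 39.4 and 39.2 in the controls and 70.4, 72.1 and 53.8 with MMK-1. MMK-1 replicate 3 was the lowest of its group but still above every control. The FPKM ratio was 1.58 and the log2 fold change 0.64 (SE 0.109, adjusted p = 0.00071 by limma). Without MMK-1 replicate 3 the log2 fold change was 0.77, and it was 0.38 after a correction for GC content (adjusted p = 0.0040), which moved the value by more than any other alternative and kept the call.

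Srebf2 (NCBI gene 20788; chromosome 15, 82147181 to 82205379, plus strand), the regulator among the 7, rose least among those that passed the test. Its FPKM was 49.4, 50.9 and 49.0 in the controls and 59.1, 59.5 and 63.7 with MMK-1. The groups did not overlap. The FPKM ratio was 1.22 and the log2 fold change 0.28 (SE 0.0434, adjusted p = 0.00037 by limma), of which 0.15 remained after the median of all genes was subtracted. With libraries scaled by the median of ratios it was 0.14 (adjusted p = 0.0076).

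Hmgcs1 (NCBI gene 208715; chromosome 13, 119690379 to 119708260, plus strand), the HMG-CoA synthase, did not pass the test. Its FPKM was 160.4, 158 and 156 in the controls and 197, 193 and 142 with MMK-1. Replicates 1 and 2 of MMK-1 lay above all controls and replicate 3 lay below all of them. The log2 fold change was 0.15 (SE 0.109, adjusted p = 0.24 by limma). Without MMK-1 replicate 3 it was 0.30 (adjusted p = 1.7e-05), and after correction for GC content it was -0.06 (adjusted p = 0.58), so neither the call nor the direction of Hmgcs1 was settled by these libraries.

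Fdft1 (NCBI gene 14137; chromosome 14, 63145150 to 63179578, minus strand), at the branch point to sterols, had the lowest FPKM of the 7 genes and also did not pass. Its FPKM was 14.7, 14.8 and 14.2 in the controls and 14.6, 15.7 and 16.8 with MMK-1. The groups overlapped. The log2 fold change was 0.10 (SE 0.0543, adjusted p = 0.12 by limma), and it was -0.04 with median-of-ratios scaling. Fdft1 lies beside Ctsb, whose exons overlap those of Fdft1 on the opposite strand and whose mean FPKM was 158 in controls and 176 with MMK-1. The length used by the authors for Fdft1, read from the steps of its FPKM values, was 10420 bases, against 3698 for its longest GENCODE transcript, and whether strand was used in the counting is not given in the sources used here. The level of Fdft1 is therefore uncertain.

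Exons of Hmgcs1, Idi1 and Lss also overlap annotated genes on the opposite strand (Gm48342, Gm48574 and 4930483K19Rik). The last was at no more than 0.00759 mean FPKM in either group and the others have no value here, so reads they may share with Hmgcs1 and Idi1 cannot be told apart. For single genes the exact two-sided permutation test of 3 libraries against 3 gave p = 0.1, the smallest it allows, for each of the 5 genes without overlap, and 0.4 for Hmgcs1 and 0.3 for Fdft1. The adjusted p-values of limma combine a gene's own spread between libraries with a spread estimated from all genes. In controls the order of FPKM was Fdps, Hmgcs1, Sqle, Srebf2, Idi1, Lss and Fdft1, and no neighbours in this order overlapped. With MMK-1, Idi1 at 53.8 to 72.1 FPKM and Srebf2 at 59.1 to 63.7 FPKM could no longer be ordered. The order rests on the gene lengths behind the deposited values, which were 1461 bases for Fdps and 4215 for Hmgcs1, against 2953 and 3464 for their longest GENCODE transcripts. With the latter lengths for all 7 genes, Hmgcs1 came first in controls (189 to 195 on the FPKM scale), before Fdps (84.6 to 87.1), and Lss came last (27.5 to 27.7), below Fdft1 (40.0 to 41.7). Fold changes do not depend on the length, apart from the weight of the pseudocount.

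**Figure D2:**
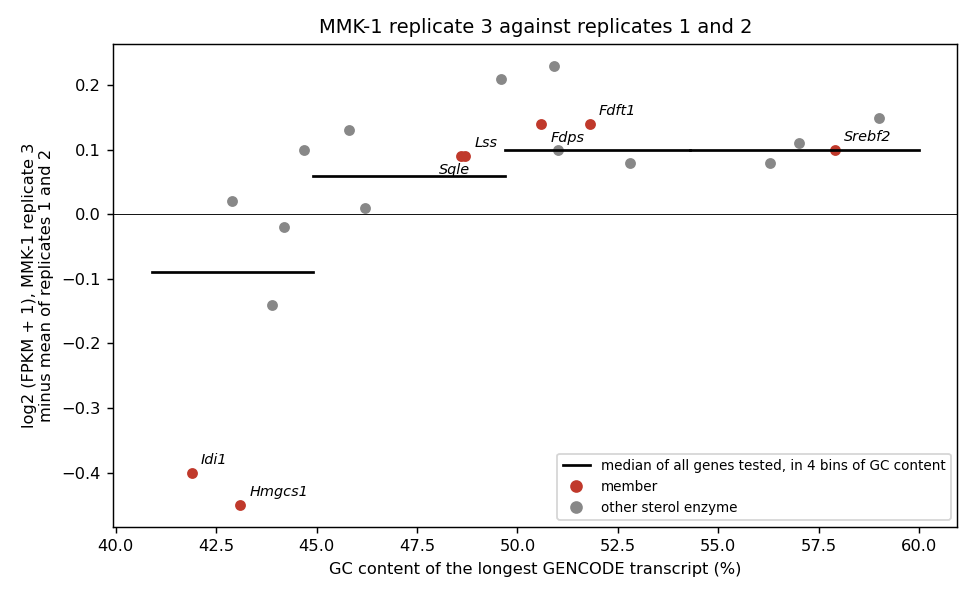
The log2(FPKM + 1) of MMK-1 replicate 3 minus the mean of replicates 1 and 2 (vertical axis) against the GC content of the longest GENCODE transcript in percent (horizontal axis), for the 7 cholesterol synthesis genes in red and 13 other sterol enzymes in grey; black lines are medians of all genes tested in 4 bins of GC content, drawn over the range of the points. Hmgcs1 and Idi1 lie at -0.45 and -0.40, further down than the median of their bin (-0.09), and the other 5 members lie between 0.09 and 0.14.

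Further enzymes between acetoacetyl-CoA and cholesterol were taken as a list of 13 genes from textbook biochemistry. All 13 were tested, of which 10 were higher and 2 lower with MMK-1 (48.5% and 24.7% of all genes tested). The median log2 fold change was 0.31. With libraries scaled by the median of ratios, and likewise after GC correction, 7 were higher and 2 lower and the median was 0.16. Pmvk, the phosphomevalonate kinase, changed most, from 12.1, 10.9 and 11.5 FPKM in controls to 23.4, 23.4 and 25.4 FPKM with MMK-1, a log2 fold change of 1.00 (adjusted p = 6.6e-07 by limma). The length behind its deposited values was 3401 bases, against 1194 for its longest GENCODE transcript, so its level is uncertain. Overlapping genes were looked for only around the 7 chosen genes. Nsdhl, which removes methyl groups from the sterol ring, rose by 0.79 on the log2 scale. Lbr, a sterol reductase that is also the lamin B receptor of the nuclear membrane, rose by 0.68.

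Not every step rose. Mvk, the mevalonate kinase directly before Pmvk, fell from 29.1, 29.4 and 29.1 FPKM in controls to 23.0, 22.0 and 23.7 FPKM with MMK-1. Its log2 fold change was -0.34 (adjusted p = 0.00011 by limma), so adjacent kinases moved in opposite directions. Dhcr7, a sterol reductase late in the pathway, fell as well. It had 59.4, 59.5 and 60.2 FPKM in controls and 41.7, 40.7 and 43.6 FPKM with MMK-1, a log2 fold change of -0.50 (adjusted p = 7.3e-06 by limma). Cyp51, the lanosterol demethylase that follows Lss, rose by 0.56. The remaining values were 0.66 for Acat2, 0.37 for Tm7sf2, 0.31 for Msmo1, 0.19 for Mvd, 0.17 for Sc5d and 0.16 for Hsd17b7, all of which passed the test, and 0.05 for Ebp (adjusted p = 0.51), which did not. The calls of Mvd, Sc5d and Hsd17b7 were lost with median-of-ratios scaling and after GC correction, and those of Mvd and Hsd17b7 with upper-quartile scaling. That of Hsd17b7 was also lost without control replicate 2, MMK-1 replicate 1 or MMK-1 replicate 2 (adjusted p of 0.076, 0.070 and 0.072 by limma).

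**Figure D3:**
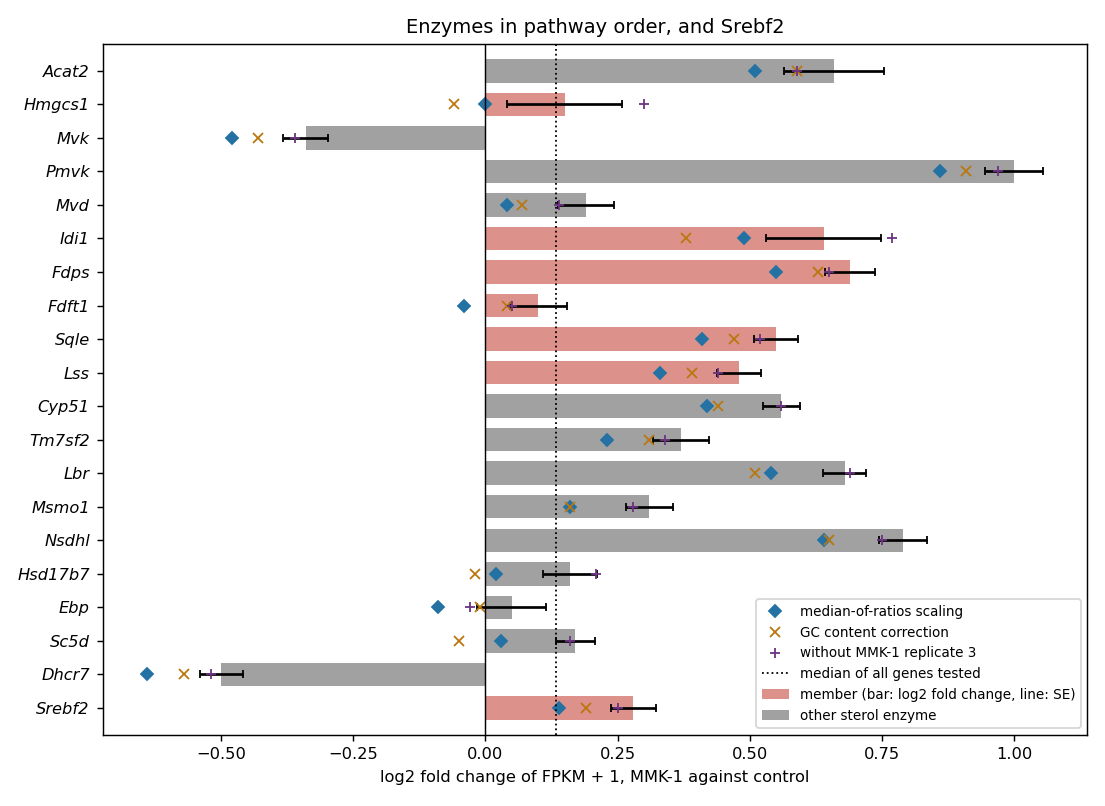
The log2 fold change of FPKM + 1 between MMK-1 and control organoids for 19 enzymes in the order in which they act, with Srebf2 at the bottom; bars are the 7 chosen genes in red and 13 other enzymes in grey, lines are standard errors, and symbols give 3 alternatives. Mvk and Dhcr7 lie left of 0 under each alternative drawn, whereas Hmgcs1, Fdft1, Hsd17b7, Ebp and Sc5d change side under at least 1 of them, and most bars lie right of the dotted median of all genes, 0.13.

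Ratios within a library do not depend on the scaling between libraries, and a few were formed after the values had been seen. They are given as a description with no test, since the separation of a ratio between a gene that rose and one that fell restates the opposite calls. That holds for the ratios of Sqle to Dhcr7 and of Fdps to Mvk. The ratio of Sqle to Dhcr7 was 1.19 ± 0.0166 (SD, n = 3) in controls and 2.49 ± 0.0794 (SD, n = 3) with MMK-1. The ratio of Fdps to Mvk was 5.94 ± 0.0970 (SD, n = 3) and 12.3 ± 0.523 (SD, n = 3), respectively. Between genes that both rose, the ratio of Fdps to Idi1 was 3.74, 4.41 and 4.49 in controls and 3.81, 3.84 and 5.57 with MMK-1, and the groups overlapped.

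**Figure D4:**
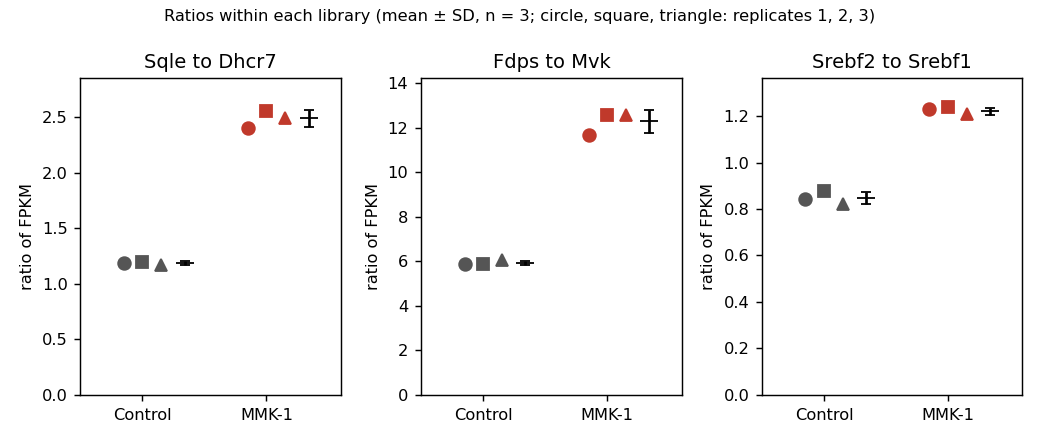
Ratios of FPKM within each library for Sqle to Dhcr7, Fdps to Mvk and Srebf2 to Srebf1, with controls in grey, MMK-1 in red, symbol shape for the replicate number and bars for the mean ± SD of 3 libraries. In each panel a gene that rose is divided by one that fell, the MMK-1 libraries lie above the controls, and for Srebf2 to Srebf1 the groups lie on either side of 1.

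Around Srebf2, a list of 10 genes for the handling of SREBP precursors had 5 higher, 4 lower and 1 without a call, where 48.5% of all genes tested were higher and 24.7% lower. The median log2 fold change was 0.12, near that of all genes, and with median-of-ratios scaling 2 were higher (Mbtps2 and Mbtps1) and 4 lower. The median turned to -0.01 under that scaling and to -0.05 after GC correction. Mbtps2, a Golgi protease that releases the factor, had 4.47, 4.81 and 4.51 FPKM in controls and 10.7, 10.6 and 7.46 FPKM with MMK-1. Its log2 fold change was 0.90 (adjusted p = 0.00012 by limma), with MMK-1 replicate 3 again low, and it was 0.57 after GC correction. Scap, the sterol-sensing escort of the precursor, rose by 0.26, and Mbtps1, the other Golgi protease, by 0.25. Insig1, which retains the complex in the endoplasmic reticulum and is itself a known SREBP target, rose by 0.13, no more than the median gene, and had -0.01 (adjusted p = 0.71) with median-of-ratios scaling. Among those that fell, Erlin1 had a log2 fold change of -0.67, Erlin2 of -0.30 and Srebf1 of -0.24 (adjusted p = 0.0014 by limma). Srebf1 encodes SREBP1, the relative of SREBP2 that acts mainly on fatty acid synthesis. The ratio of Srebf2 to Srebf1 was 0.844, 0.876 and 0.823 in the controls and 1.23, 1.24 and 1.21 with MMK-1.

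Genes that handle sterols formed a list of 16. It held genes of uptake, esterification, transfer and export, and regulators such as Nr1h2 and Nr1h3. Of these 16, 14 were tested, and 3 were higher and 8 lower (48.5% and 24.7% of all genes tested). Among the 8 were Nr1h3 (-0.54 on the log2 scale), Nr1h2 (-0.17) and Osbp (-0.16), which are not genes of uptake, esterification or export. The median log2 change was -0.17, and it was -0.31 with median-of-ratios scaling and -0.28 after GC correction, with 10 lower in each. Npc1l1, the transporter for luminal cholesterol, had 243, 246 and 243 FPKM in controls and 110.3, 114 and 119 FPKM with MMK-1 (log2 fold change -1.08, adjusted p = 7.6e-08 by limma), and Abcg5 and Abcg8, which together form the sterol exporter, had log2 fold changes of -0.84 and -0.92. These are genes of absorptive cells, whose markers fell as given above. The esterifying enzymes went opposite ways, since Soat1 rose by 0.70 and Soat2, the intestinal and hepatic form, had a log2 fold change of -0.72. The other genes that rose were Npc1 (0.38), which exports cholesterol from lysosomes, and Tmem97 (0.25).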

How the data were processed

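RNA of 6 samples, 3 control and 3 MMK-1, was sequenced as 150-base paired reads. The deposited values are FPKM, which the authors computed per gene and library, and no further scaling is stated. The submitters' processing notes name HISAT2, HTSeq, DESeq2 and R 3.2.0 with the build mm10. Roles and annotation are not given in the sources used here. Groups were taken from the sample titles.

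FPKM values were tested with limma 3.58.1 (R 4.3.3, eBayes with trend) as log2(FPKM + 1) over genes that averaged 1 FPKM or more, with Benjamini-Hochberg adjustment over all genes tested. Fragments, library totals and lengths were recovered from the steps of the values, which were whole within 0.0002 fragments for 100% of genes. Python 3.11.15 was used for counts and plots. GC content came from the longest GENCODE vM21 transcript (96.3% of genes tested) and coordinates from the same annotation on GRCm38. The fit was tested on simulated libraries of 10551 genes, where it called 98% of genes raised 1.5-fold and 100% at the other simulated folds. It made 10 false calls. The simulated libraries shared the same fixed spread, with no library set apart, so the result does not cover the deviation of MMK-1 replicate 3.

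The members and lists were chosen with earlier results of these data known. Some genes are not reported here and were left out of the list of other enzymes, its counts and its median. The rule for names took the 7 genes, the 3 strongest called genes per direction in each list, and the 3 genes nearest in profile to each member. Most marker lists are given as counts or summed FPKM, and the other genes named and the ratios were added after values were seen. Alternatives were 2 scalings, a GC correction, no filter, a pseudocount of 0.1, limma-voom on recovered fragments, a replicate block and each library left out.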

Additional observations from a re-analysis of the deposited data

How the results depend on the processing

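Upward or downward calls of Idi1, Fdps, Sqle, Lss and Srebf2 were kept in all 13 alternatives, and so were those of 9 of the 13 other enzymes, Mvk and Dhcr7 among them. Scaling moved the balance of all genes. At an adjusted p of at most 0.05, 5118 genes were higher and 2606 lower, against 4395 and 3291 with upper-quartile scaling, 3792 and 3828 with median-of-ratios scaling and 3694 and 3767 after correction for GC content. Median-of-ratios scaling moved the median over all genes from 0.13 to 0.01 (log2). At a fold change of at least 2, 358 genes were higher, against 230 with median-of-ratios scaling, 676 with a pseudocount of 0.1, 727 with limma-voom on the recovered fragments and 204 after GC correction. With each library left out in turn, this number was 336 to 434, the members called higher were 5 to 6, and the other enzymes called higher were 9 to 10.

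Directions that turned were those of small changes. After GC correction the log2 fold change was -0.06 for Hmgcs1, -0.02 for Hsd17b7, -0.01 for Ebp and -0.05 for Sc5d. Median-of-ratios scaling gave -0.04 for Fdft1 and -0.09 for Ebp, and upper-quartile scaling gave -0.03 for Ebp. With libraries left out in turn, Ebp ranged from -0.03, without MMK-1 replicate 3, to 0.10. Fdft1 passed the test without MMK-1 replicate 1 (0.15, adjusted p = 0.037), and Hmgcs1 only without MMK-1 replicate 3. Beyond the constructions themselves, the cause was not tested.

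Replicate numbers are shared between the groups, but same-numbered libraries did not deviate together (correlations over genes of 0.0253, -0.0400 and 0.0279). With a replicate block, 5024 genes were higher and 2543 lower, and 5 members and 10 other enzymes were higher, so no call of a sterol enzyme changed. Depth limits little here, since each member had at least 4200 fragments in a library. With 3 libraries a group, 1 library decided the calls of Hmgcs1, Fdft1 and Hsd17b7 (without control replicate 2, MMK-1 replicate 1 or MMK-1 replicate 2 for the last) among the members and other enzymes.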

Other observations

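Fatty acid synthesis, the other lipid pathway that draws on acetyl-CoA, was described through a list of 10 genes. All 10 passed the limma test upward, with a median log2 fold change of 0.47 against 0.13 for all genes tested, of which 48.5% were higher. Of the 10, 8 passed with upper-quartile scaling and 7 with median-of-ratios scaling, where Fads2 had -0.01, and Elovl6 had -0.03 after GC correction. Me1, the malic enzyme that supplies NADPH, had 22.9, 22.4 and 21.2 FPKM in controls and 48.1, 50.3 and 46.1 FPKM with MMK-1 (log2 fold change 1.09). Acly, which makes cytosolic acetyl-CoA from citrate, had 23.5, 24.2 and 23.3 FPKM in controls and 47.8, 48.0 and 50.6 FPKM with MMK-1 (1.01). Acaca, the carboxylase that makes malonyl-CoA, rose by 0.72. These rises stood beside the fall of Srebf1 given above.

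Of 11 genes of the branch that leads to isoprenoid products other than sterols, such as prenylated proteins, dolichol and ubiquinone, 4 were higher and 7 had no call, where 48.5% of all genes tested were higher. With median-of-ratios scaling 3 were higher and 2 lower. The largest changes were those of Pdss1 (0.51), Pggt1b (0.49) and Ggps1 (0.36). After GC correction 1 was higher, Pggt1b, and 2 were lower, and Pdss1 (0.15) and Ggps1 (0.02) no longer passed.

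The genes nearest to each member in profile, by the root mean square distance of centred log2(FPKM + 1) over 6 libraries, were Mbnl1 (0.0170) for Hmgcs1, Gm51425 (0.0212) for Idi1, Atxn7l3 (0.0149) for Fdps, Pde2a (0.0132) for Fdft1, Dnaaf5 (0.00938) for Sqle, Slc35c1 (0.0120) for Lss and Eif3c (0.0125) for Srebf2. Mbnl1 had 29.8, 30.2 and 21.7 FPKM with MMK-1, so it shared the low value of replicate 3 with Hmgcs1.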
